A study of Homo sapiens with 42 samples.

Results

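The transcripts described here are those of INHBE, INHBA, INHBB, INHA, FST, FSTL3 and FSTL1, the inhibin and activin subunits and their binding proteins, 7 of the 28266 gene symbols in the counts table. They were taken by name from the table over all 12 groups. INHBE led the choice and was selected on its own readout, named as the most raised gene after COPB2 knockdown in RAS-induced senescence. The measure behind that choice is not stated, and ranks by fitted fold change are given below. INHBE values in that contrast are therefore given as a description with no test, since the contrast chose the gene.

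RNA was sequenced from poly(A) libraries of human IMR90 lung fibroblasts, an established strain, at day 10 of 2 senescence models. In IMR90 ER:RAS cells, an oestrogen receptor fusion of oncogenic RAS was switched on with 100 nM 4-hydroxytamoxifen (4OHT) to give oncogene-induced senescence (OIS), with DMSO as the control. In IMR90 cells, 50 µg/ml bleomycin for 24 h, which breaks DNA, was compared with DMSO. After 7 days in culture, 1 µg/ml doxycycline for 72 h induced a control shRNA, COPB2 shRNA 1 or COPB2 shRNA 2 in each of these 4 cell states. COPB2 encodes a subunit of the COPI coat, which forms vesicles that carry proteins back from the Golgi to the ER (endoplasmic reticulum). Every group, controls included, thus carried a virally delivered, doxycycline-inducible shRNA vector and received doxycycline. There were 18 ER:RAS libraries, 3 in each of 6 groups, and 24 IMR90 libraries, 4 in each of 6 groups. The labels give the genotype as wild type for the control shRNA groups, including those of the ER:RAS line, and as a COPI knockdown for the others.

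Activins and inhibins are secreted dimers of the TGF-β family. INHBA, INHBB and INHBE encode β subunits, which pair with each other as activins, and INHA encodes the α subunit, which pairs with a β subunit to form an inhibin that opposes activin. Activins signal through type II and type I receptor kinases to SMAD2 and SMAD3. Follistatin (FST) and follistatin-like 3 (FSTL3) bind activins outside the cell and keep them from their receptors, and FSTL1 shares a follistatin-like domain with them. INHBE is known mainly as a hepatokine of the liver, and INHBA as a secreted factor of activated and senescent fibroblasts.

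Total counts ran from 13148194 to 23597310 per library, and the 10 most abundant genes took 4.21% to 8.64% of them. The targeted gene, COPB2, stood at 267 to 620 CPM (counts scaled to library size with TMM factors) in the 14 control shRNA libraries and at 33.9 to 122 in the 28 knockdown libraries. All 10 fibroblast markers had a median above 1 CPM, and their sum was 11071 to 33477 CPM. Markers of the other cell types summed to 5.54 to 52.5 (epithelial, 6 genes), 1.299 to 67.1 (endothelial, 5 genes) and 0.250 to 3.49 CPM (blood, 5 genes). The hepatocyte list of 6 genes is given beside INHBE. The labels do not say whether libraries of a group came from separate cultures, while a supplementary legend of the study counts knockdown samples of both senescence models as independent experiments. The p-values measure the spread between these libraries. In bulk RNA, fewer cells of a type and less RNA per cell cannot be told apart.

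The hairpins that set the knockdown groups are shown because INHBE is the member that differed between those groups. Both guide strands came from the study's reagent list, where they are numbered COPB2.1 and COPB2.2, and the labels do not say which of them is shRNA 1. Capitals mark the seed, bases 2 to 8.
COPB2.1: tTAAATATctttacaatgctgt
COPB2.2: tAATTGAAcactctaatctgca
A site matching the whole guide was found in 11 and 15 of the 18 annotated COPB2 transcripts (GENCODE, GRCh37) and in 0 transcripts of the 7 members. Seed matches were found in 0 of 4 INHBE transcripts for both guides, in 1 of 5 INHBA transcripts for COPB2.1 and in 4 of 11 FSTL1 transcripts for COPB2.2. These are letter matches in the annotation, not measured targeting.

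The 250 bases before the start of INHBA and of FST are shown next, as these were the members called in both senescence models. They are RefSeq sequences of the GRCh38.p14 build, which held 6 of the 7 members, and INHBE was not among them. Positions are chr7:41703091-41703340 on the minus strand and chr5:53480379-53480628 on the plus strand.
INHBA: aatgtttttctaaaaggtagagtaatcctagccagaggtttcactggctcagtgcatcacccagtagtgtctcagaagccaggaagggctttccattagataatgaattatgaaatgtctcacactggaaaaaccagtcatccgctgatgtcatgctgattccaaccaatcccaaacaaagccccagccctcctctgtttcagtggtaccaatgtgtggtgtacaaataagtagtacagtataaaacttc
FST: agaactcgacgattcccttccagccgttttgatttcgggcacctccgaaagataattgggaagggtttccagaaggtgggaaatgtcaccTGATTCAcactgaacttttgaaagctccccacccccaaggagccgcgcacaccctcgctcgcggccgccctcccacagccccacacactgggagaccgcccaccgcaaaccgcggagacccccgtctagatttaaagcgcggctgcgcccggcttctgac
Capitals mark a match to TGANTCA, the pattern used for an AP-1 element, in which N allows any base. FST held TGATTCA from 160 to 154 bases before the start, and INHA held TGAGTCA from 230 to 224 bases before it. Of 35116 promoters of this length, 6.57% held that motif on either strand. The C/EBP-ATF composite element (TGATGNAAN) occurred in 3.13% of promoters, the cAMP response element (TGACGTCA) in 1.65% and the palindromic SMAD element (GTCTAGAC) in 0.182%, and none of these 3 letter patterns was in the 6 windows.

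INHBE (ENSG00000139269, chr12:57846106-57853063 on the plus strand, GRCh37) was barely expressed wherever the control shRNA was used and was higher in every COPB2 shRNA group. Over the 14 control shRNA libraries it had 0.230 to 2.26 CPM, from 4 to 33 counts. In the 22 knockdown libraries of bleomycin-treated and DMSO-treated cells it had 1.86 to 8.75 CPM, and in the 6 of OIS 23.1 to 51.6 CPM, from 329 to 937 counts. A single unnamed antisense RNA overlaps INHBE on the other strand, and the strand setting of the counting is not stated, so reads of both cannot be told apart.

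In OIS, the 3 control shRNA libraries had 2.26, 1.06 and 0.507 CPM of INHBE (25, 16 and 8 counts). With shRNA 1 the libraries had 23.1, 32.9 and 47.1 CPM, and with shRNA 2 they had 26.5, 36.8 and 51.6 CPM. Every knockdown library stood above every control library. The means were 1.27 ± 0.895, 34.4 ± 12.04 and 38.3 ± 12.6 (SD, n = 3), a ratio to the control of 26.99 for shRNA 1 and 30.1 for shRNA 2. The fitted log2 fold changes were 4.80 (SE 0.53) and 4.95 (SE 0.53). By fitted fold change INHBE held rank 7 of 14297 with shRNA 1 and rank 3 with shRNA 2. In this contrast 0.14% and 0.224% of genes were called, and the groups did not overlap in 6.4% and 7.88% of 15299 genes. Because the contrast chose INHBE, nothing is read from these shares.

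ER:RAS cells with DMSO, which the choice did not use, had INHBE at 1.17, 2.09 and 1.15 CPM with the control shRNA. They had 3.14, 4.47 and 5.97 CPM with shRNA 1 and 6.36, 6.33 and 8.75 CPM with shRNA 2. Both knockdown groups lay above the controls with no overlap. The log2 fold change was 1.62 (SE 0.47, 95% interval 0.62 to 2.61) and 2.27 (SE 0.47, 1.26 to 3.28), and neither was called over 14297 genes by edgeR (adjusted p 1.000 and 0.569). Of all genes 0.00699% were called with each shRNA, which is COPB2 alone, and 0.014% with the mean of both, where the log2 fold change of INHBE was 1.94 (adjusted p 1.000, SE 0.43). The DESeq2 Wald test called INHBE with shRNA 2 (adjusted p 0.00280) and both (0.00575), and the share of all genes that it called was not counted. The groups did not overlap in 4.24% and 3.39% of all genes. By an exact two-sided permutation test of INHBE alone, p was 0.1 for each shRNA, the smallest that 3 against 3 allows, and 0.02381 for both shRNAs together, higher in 6 of 6 libraries. The test over both counted both shRNAs of a replicate as separate.

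IMR90 cells given DMSO had 1.38, 0.734, 1.13 and 1.37 CPM of INHBE with the control shRNA. With shRNA 1 they had 4.44, 3.14, 4.12 and 2.35 CPM, and with shRNA 2 they had 6.24, 4.199, 5.32 and 3.43 CPM. Again no knockdown library reached down to a control. The log2 fold changes were 1.62 (SE 0.39) and 2.07 (SE 0.39), not called by edgeR (adjusted p 1.000 and 0.202), and 1.85 (adjusted p 0.285, SE 0.36) over both shRNAs. The DESeq2 Wald test called INHBE with shRNA 2 (adjusted p 0.000272) and both (0.000232), edgeR on just these 12 libraries called it with both (0.0342), and the replicate block within treatment did so with shRNA 2 (0.00690) and both (0.0104). That block called 10 of all genes with shRNA 2 and 15 with both. No such count was made for the Wald test or the fit of 12 libraries. In the main fit, each of these 3 contrasts called 0.00676% of genes, which is COPB2 alone. There 165, 166 and 167 genes had an unadjusted p under 0.05. The exact two-sided permutation p of INHBE alone was 0.02857 with each shRNA and 0.00404 with both, each the smallest possible. Here too, the test over both counted both shRNAs of a replicate as separate. The groups did not overlap in 1.69% and 1.58% of all genes.

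In bleomycin-treated cells, INHBE stood at 0.575, 1.03, 0.230 and 1.56 CPM with the control shRNA (12, 18, 4 and 30 counts). It stood at 2.03, 2.31, 1.86 and 4.89 CPM with shRNA 1 and at 4.80, 2.96, 5.29 and 4.04 CPM with shRNA 2. All 8 knockdown libraries were above all 4 controls. With shRNA 2 INHBE rose by 2.33 on the log2 scale (SE 0.41, 95% interval 1.49 to 3.17, adjusted p 0.0234), and over both shRNAs by 2.02 (SE 0.37, 1.25 to 2.79, adjusted p 0.0472). With shRNA 1 the log2 fold change was 1.71 (SE 0.41, 0.87 to 2.55, adjusted p 0.9998), which was not called. The shares of all genes called were 0.0744%, 0.0474% and 0.00676%, and the groups did not overlap in 1.95% of genes with shRNA 2 and in 1.27% with shRNA 1. INHBE alone gave an exact two-sided permutation p of 0.02857 with each shRNA and 0.00404 with both, each the smallest possible. That test exchanged libraries without regard to replicate number. It therefore did not keep the pairing described next, and it counted both shRNAs of a replicate as separate.

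The bleomycin libraries of equal replicate number deviated together, and with the replicate number as a block within treatment INHBE was called with shRNA 1 (1.70, adjusted p 0.0470), shRNA 2 (2.41, adjusted p 0.000720) and both (2.05, adjusted p 0.00235). This block also raised the shares of all genes called, to 0.237%, 4.48% and 1.22%. Without the block, a fit of only the libraries compared lost the calls with shRNA 2 (adjusted p 0.864) and both (0.915). The call with shRNA 2 was also lost when the control replicate 1 (adjusted p 0.197), control replicate 3 (0.0979), shRNA 2 replicate 1 (0.0926) or shRNA 2 replicate 3 (0.0603) was left out, at log2 fold changes of 2.02 to 2.24. The call over both shRNAs was lost in 9 of 12 fits without 1 library, with adjusted p-values from 0.0606 to 0.431: those without control replicate 1, 2 or 3, shRNA 1 replicate 1, 2 or 4, and shRNA 2 replicate 1, 3 or 4.

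**Figure D1:**
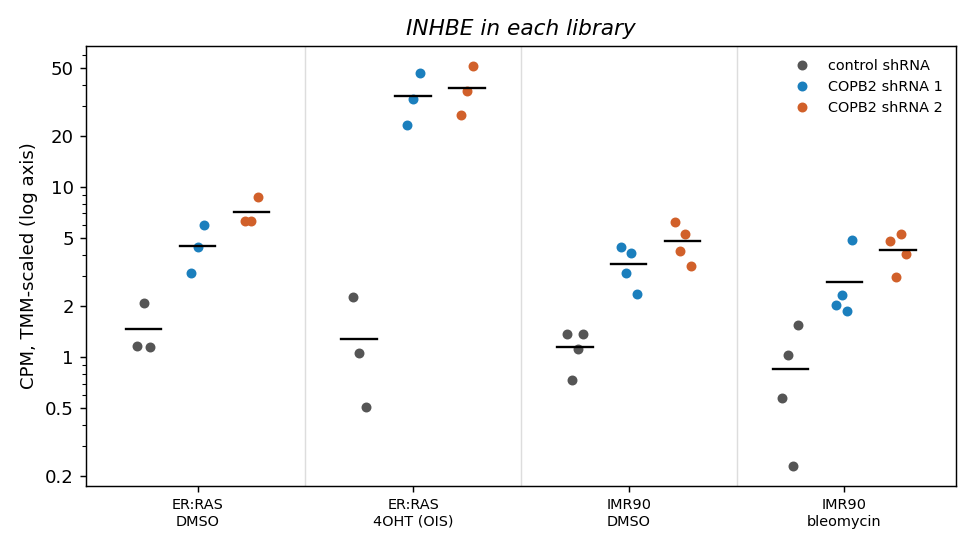
INHBE in each of the 42 libraries in CPM on a log axis, by cell state and shRNA, with 1 point a library and a bar at the group mean. The 14 control shRNA libraries lie between 0.230 and 2.26 CPM, and the 6 OIS libraries with a COPB2 shRNA lie between 23.1 and 51.6 CPM, above all others.

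In the order of group means, both OIS knockdown groups came first at 38.3 and 34.4 CPM and overlapped each other. A gap with no overlap separated them from ER:RAS cells with DMSO and shRNA 2 (7.15 ± 1.39, n = 3). A second, far narrower gap lay between that group and IMR90 cells with DMSO and shRNA 2 (4.80 ± 1.24, n = 4). Below these followed ER:RAS DMSO with shRNA 1 (4.53 ± 1.42), bleomycin with shRNA 2 (4.27 ± 1.02), IMR90 DMSO with shRNA 1 (3.51 ± 0.952) and bleomycin with shRNA 1 (2.77 ± 1.42). The 4 control groups closed the order at 1.47 ± 0.536, 1.27 ± 0.895, 1.15 ± 0.302 and 0.848 ± 0.575. Below the second gap each group overlapped its neighbour. Shares of all genes with such gaps were not counted.

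Under the control shRNA the log2 fold change of INHBE was -0.45 after bleomycin (adjusted p 0.465, SE 0.42), which was not called. In OIS it was -0.34 (SE 0.48), given with no test because the OIS control libraries were part of the choice of INHBE. The size of the knockdown response did not differ detectably between bleomycin-treated and DMSO-treated IMR90 cells (difference 0.18 on the log2 scale, 95% interval -0.85 to 1.197), and the sign of that difference turned without bleomycin control replicate 3 or shRNA 1 replicate 4. In that comparison 0% of genes were called by edgeR, with 154 at an unadjusted p under 0.05. The corresponding difference in ER:RAS cells, 2.94 (SE 0.59) higher in OIS than with DMSO, contains the libraries that chose INHBE and was not tested. Between shRNA 2 and shRNA 1 in bleomycin-treated cells INHBE differed by 0.62 (95% interval -0.14 to 1.39, adjusted p 0.690), again with 0% of genes called, and 1026 at an unadjusted p under 0.05. With the block it differed by 0.70 (adjusted p 0.0965), while 8.62% of all genes were called and 2 members were among them: FST was 0.29 higher (adjusted p 0.0476) and FSTL3 0.44 higher (adjusted p 0.0480) with shRNA 2.

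Since INHBE is a hepatocyte gene, the hepatocyte list was read in each group. The summed level of its 6 genes was 43.9 to 59.2 CPM in the OIS controls, 37.5 to 50.97 under shRNA 1 and 32.04 to 40.2 under shRNA 2, and nearly all of it was SERPINA1, at up to 57.7 CPM. In any library APOA1 reached at most 1.81 CPM, APOH 0.333, ALB 0.256, FGB 0.109 and TTR 0.104. The endothelial list also stood higher in OIS, at 36.7 to 67.1 CPM against 1.299 to 5.17 in ER:RAS cells with DMSO, through TIE1 at up to 53.9 CPM. The part of either list in the OIS results was not tested.

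INHBE lies in a dense stretch of chromosome 12, and the annotation places 19 genes within 150 kb of it, 13 of them in the counts table. Its nearest neighbours on both sides run on the same strand: INHBC, another β subunit gene, ends 261 bases before its start, and GLI1, a transcription factor of Hedgehog signalling, begins 505 bases after it. INHBC had 0 to 5 counts in any library. In OIS, GLI1 averaged 2.18 CPM in the controls, 2.90 under shRNA 1 and 2.46 under shRNA 2. MARS1, a methionine tRNA synthetase, averaged 390, 387 and 392 CPM in the same groups. DDIT3, which encodes the stress factor CHOP and lies 57308 bases away, averaged 27.4, 152 and 165 CPM. ARHGAP9 averaged 0.188, 0.461 and 0.566 CPM, and MIR616, which lies within DDIT3, 0.0301, 0.145 and 0.0917 CPM. The means of R3HDM2 (44.8, 42.6 and 41.3), MBD6 (31.6, 29.6 and 28.9), DCTN2 (268, 230 and 238), KIF5A (1.13, 0.725 and 0.844), PIP4K2C (21.6, 24.4 and 23.2) and DTX3 (19.7, 16.9 and 17.1) are given to complete the window. These are descriptions of the contrast that chose INHBE.

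The genes whose log2 CPM ran most like that of INHBE over the 42 libraries were HERPUD1 (Pearson r 0.890), DDIT3 (0.860), SLC1A4 (0.843), PCK2 (0.835), ATF4 (0.832), ADM2 (0.817), RAB33A (0.812), C1orf174 (0.810), C16orf71 (0.807) and SMCO4 (0.806), out of 15298 other genes. HERPUD1 takes part in ER-associated degradation, and ATF4 and DDIT3 are transcription factors of the integrated stress response. SLC1A4 carries neutral amino acids and PCK2 is a mitochondrial phosphoenolpyruvate carboxykinase. The points share libraries and the 6 OIS knockdown libraries stand far from the rest. As the libraries that chose INHBE are among the 42, this order is a description. With group means removed, r with INHBE was 0.655 for HERPUD1 (rank 4), 0.607 for ATF4 (rank 12), 0.484 for DDIT3 (rank 70) and -0.076 for C1orf174 (rank 10033). The other members ran less like INHBE, from -0.54 for FST to 0.34 for INHBA.

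DDIT3 in OIS had 29.6, 25.6 and 27.1 CPM in the controls, 106, 118 and 234 under shRNA 1 and 124, 137 and 233 under shRNA 2. ATF4 had 300, 205 and 118 CPM, then 402, 478 and 384, then 467, 564 and 451. Both genes were higher in each knockdown library than in each control library. In this contrast, which chose INHBE, the groups did not overlap in 6.4% and 7.88% of all genes. In bleomycin-treated cells DDIT3 had 25.4, 30.3, 26.4 and 41.1 CPM in the controls, 45.1, 35.9, 44.6 and 63.5 under shRNA 1 and 53.3, 69.3, 74.1 and 79.0 with shRNA 2. The groups with shRNA 1 and the control overlapped there, and those with shRNA 2 and the control did not.

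**Figure D2:**
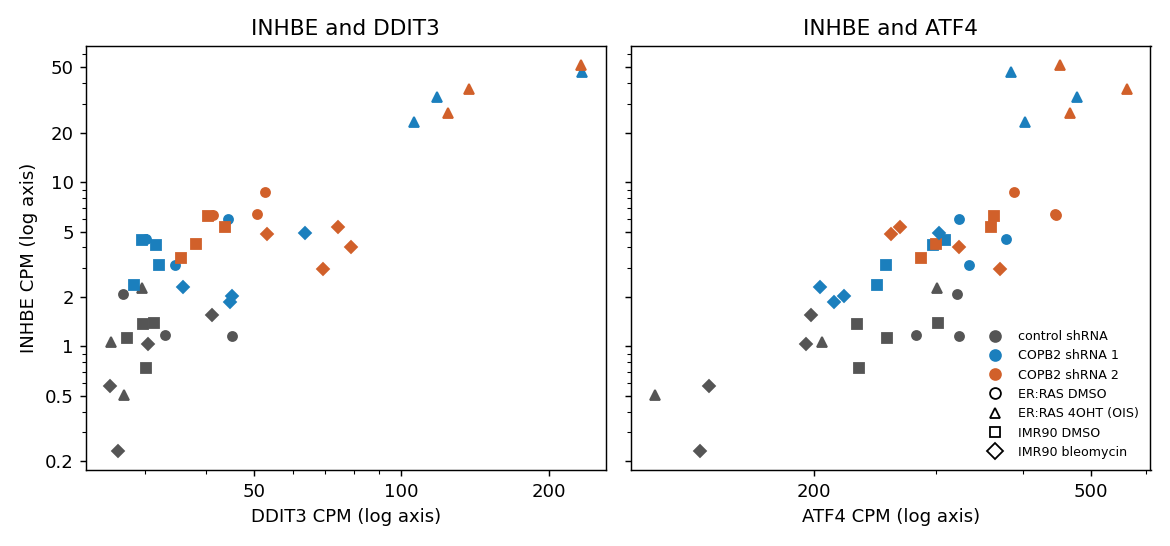
INHBE against DDIT3 and against ATF4 in CPM on log axes, 1 point a library, with colour for the shRNA and shape for the cell state. The 6 OIS libraries with a COPB2 shRNA lie apart at the top right, at 23.1 to 51.6 CPM of INHBE and 106 to 234 CPM of DDIT3.

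A list of 26 stress response genes and 7 ER chaperone or ER-associated degradation genes was set beside INHBE, of which 25 and 7 were tested. After bleomycin with shRNA 2, 5 stress genes and 1 of the ER genes rose and 0 fell. Over all 14783 genes 11 were called (0.0744%), 10 of them higher. Of the stress estimates 25 of 25 were above 0, with a median log2 fold change of 0.74 beside 0.01 over all genes. The called genes were DDIT3 (1.17, adjusted p 0.00241), ATF4 (0.86, adjusted p 0.0410), CTH, an enzyme of cysteine synthesis (1.42, adjusted p 0.00896), MTHFD2, a mitochondrial folate enzyme (0.90, adjusted p 0.0410), ADM2, a secreted peptide (1.64, adjusted p 0.0234), and HERPUD1 (1.10, adjusted p 0.00241). Over both shRNAs 4 stress genes and HERPUD1 were called, beside 0.0474% of all genes. The median of the stress genes was 0.58, and ATF4 was not called (0.68, adjusted p 0.161). None of the list was called in the contrasts of DMSO-treated cells or with shRNA 1 after bleomycin, where COPB2 was the only call besides 1 further gene in ER:RAS cells over both shRNAs. In DMSO-treated ER:RAS cells 21 of 25 stress estimates were above 0 with shRNA 1 (median 0.33). With shRNA 2 it was 25 of 25 (median 0.44), where the median over all genes was -0.005. INHBE was not part of these lists, and the lists were written with earlier results of these data known.

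INHBA (ENSG00000122641, chr7:41706766-41745432 on the minus strand, GRCh37) encodes the subunit of activin A and had the largest response of the members to senescence. In OIS it had 1131, 1051 and 2107 CPM with the control shRNA, against 18.95, 7.22 and 28.96 CPM with DMSO. After bleomycin it had 113, 38.8, 125 and 191 CPM, against 14.96, 22.2, 30.6 and 17.4 with DMSO. The groups did not overlap in either model, with means of 1430 ± 588 against 18.4 ± 10.9 (SD, n = 3) and 117 ± 62.3 against 21.3 ± 6.90 (SD, n = 4). INHBA rose in OIS by 6.17 on the log2 scale (SE 0.75, 95% interval 4.57 to 7.77, adjusted p 1.29e-05) and after bleomycin by 2.42 (adjusted p 0.000844, SE 0.51), ratios of 77.8 and 5.49. The median gene stood at -0.08 in OIS and at 0.04 with another scaling of the libraries (DESeq2 size factors), so changes are read against a shift of that size. An antisense gene, INHBA-AS1, overlaps it on the other strand.

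The OIS response of INHBA was 6.18 (adjusted p 1.16e-05, SE 0.75) with COPB2 shRNA 1 and 6.003 (adjusted p 1.45e-05, SE 0.75) with shRNA 2. Its bleomycin response was 3.11 (adjusted p 7.54e-05, SE 0.52) and 2.85 (adjusted p 0.000161, SE 0.52). Its level in the OIS knockdown libraries was 817 to 1539 CPM, which overlapped the control. After bleomycin the 8 knockdown libraries ranged from 64.2 to 354 CPM, also across the controls, and the log2 fold changes of 0.45 and 0.54 (SE 0.48 each) were not called. A direct comparison of both models, which also compares both cell lines, gave a rise of INHBA larger by 3.82 in OIS (adjusted p 0.000553, SE 0.79), where 20.3% of 15299 genes were called.

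INHBB (ENSG00000163083, chr2:121103712-121109379 on the plus strand), the subunit of activin B, and INHA (ENSG00000123999, chr2:220433884-220440433 on the plus strand), the inhibin α subunit, were near the limit of detection. INHBB had 0 to 8 counts in any ER:RAS library, 2 to 15 in IMR90 cells with DMSO and 6 to 20 after bleomycin, and INHA had 0 to 17 counts in any library. Both were removed by the filter on low counts in ER:RAS cells, where 5 of the 7 members were tested, and all 7 were tested in IMR90 cells. INHA overlaps OBSL1 on the other strand.

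With the control shRNA INHBB had 8, 10, 6 and 14 counts after bleomycin and 15, 5, 5 and 3 with DMSO, a log2 fold change of 0.43 (adjusted p 0.556, SE 0.48). With shRNA 1 it had 12, 20, 10 and 16 counts after bleomycin against 8, 2, 9 and 4, and rose by 1.41 (adjusted p 0.0247, SE 0.48). With shRNA 2 it had 9, 14, 11 and 12 counts against 3, 3, 6 and 5, and rose by 1.47 (adjusted p 0.0248, SE 0.51). The first of these calls was lost without bleomycin replicate 2 (adjusted p 0.0821) or DMSO replicate 2 or 4 (0.104 and 0.0760). The other was lost without bleomycin replicate 2 (0.0710) or DMSO replicate 1 or 2 (0.0504 and 0.0694). In IMR90 cells INHBB passed the filter on low counts through its bleomycin libraries, where it was higher. Both calls are therefore given as a description.

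In ER:RAS cells INHBB had 6, 3 and 2 counts with DMSO and 0, 0 and 1 in OIS with the control shRNA. With shRNA 2 in OIS it had 1, 2 and 8 counts, which did not overlap the control, whereas INHA had 0, 1 and 1 counts against 2, 2 and 2. No fold is given for these counts, as all but 1 library of the OIS groups were at or under 3 counts.

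INHA had 4, 0, 3 and 1 counts after bleomycin with the control shRNA and 4, 8, 7 and 7 with DMSO, a log2 fold change of -1.62 (adjusted p 0.111, SE 0.75). With shRNA 2 it had 17, 4, 1 and 14 counts after bleomycin, 2.09 above the control on the log2 scale (adjusted p 0.650, SE 0.72). The libraries of that group spread over the whole range seen for INHA.

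**Figure D3:**
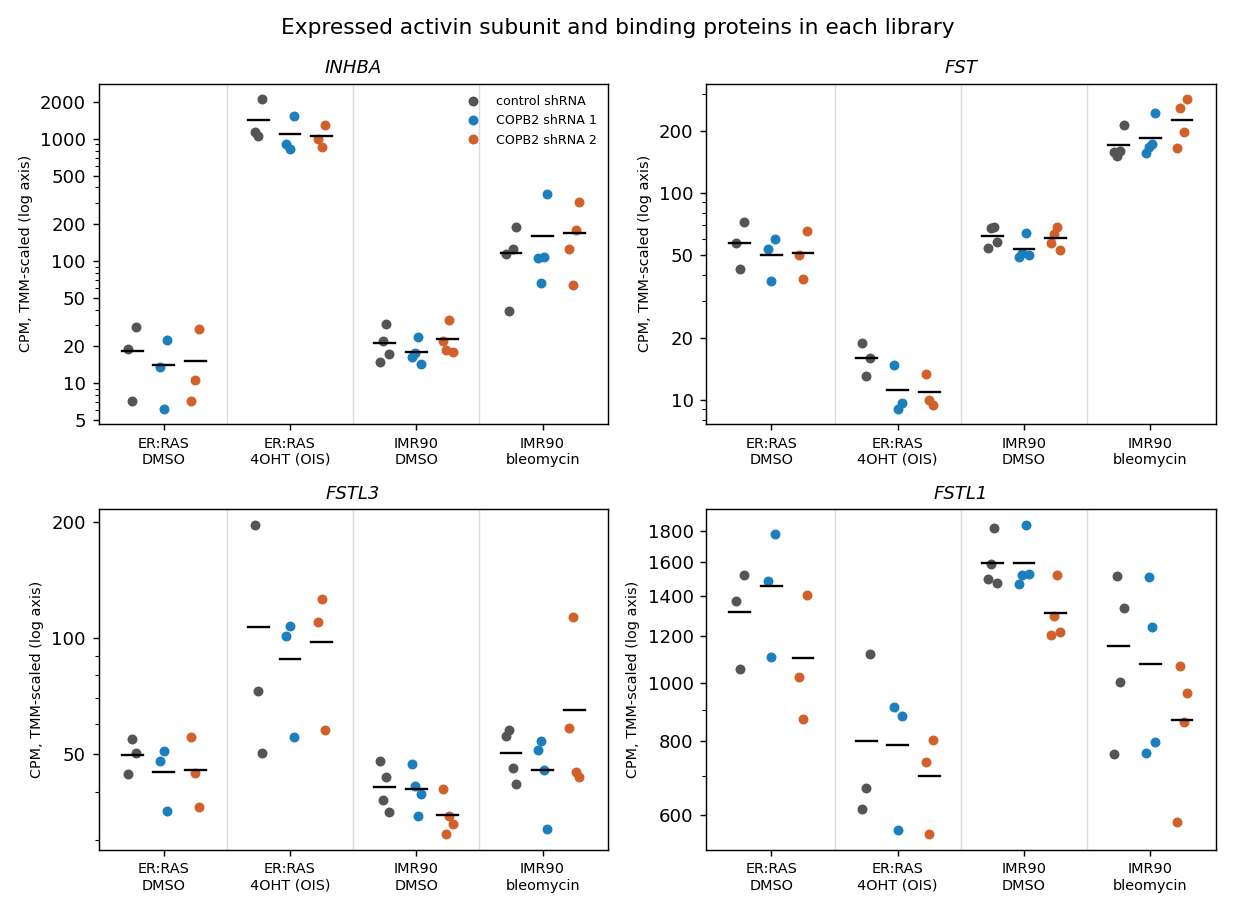
Levels of INHBA, FST, FSTL3 and FSTL1 in each of the 42 libraries in CPM on log axes, 1 panel a gene and 1 point a library, by state and shRNA, with a bar at the group mean. INHBA separates OIS libraries (817 to 2107 CPM) from all others, and FST is lowest in OIS (9.08 to 18.8 CPM) and highest after bleomycin (152 to 284 CPM).

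FST (ENSG00000134363, chr5:52776456-52782964 on the plus strand), which encodes the activin trap follistatin, changed in opposite directions in the 2 models. In OIS it had 18.8, 13.1 and 15.97 CPM with the control shRNA against 57.1, 43.0 and 72.2 with DMSO. After bleomycin it had 157, 152, 160 and 212 CPM against 54.2, 67.7, 68.6 and 58.2. FST fell by 1.96 on the log2 scale in OIS (adjusted p 0.000150, SE 0.31) and rose by 1.42 after bleomycin (adjusted p 2.84e-06, SE 0.17). The direct comparison of both responses gave a difference of -3.30 (adjusted p 2.36e-09, SE 0.32), OIS minus bleomycin. With DMSO and the control shRNA FST did not differ detectably between the lines (-0.11, SE 0.22, adjusted p 0.798), and 0 of 7 members were called there, with 0.346% of all genes called.

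The same directions were seen with each COPB2 shRNA. FST fell by 2.26 (adjusted p 4.32e-05, SE 0.32) and 2.33 (adjusted p 3.45e-05, SE 0.32) in OIS and rose by 1.75 (adjusted p 1.81e-07, SE 0.18) and 1.86 (adjusted p 7.65e-08, SE 0.18) after bleomycin. In OIS the knockdown libraries had 9.08 to 14.8 CPM and overlapped the control, and after bleomycin they had 155 to 284 CPM. The log2 fold change after bleomycin with shRNA 2, 0.41 (SE 0.17), was not called (adjusted p 0.701), but it was with the replicate block (0.40, adjusted p 0.0150).

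The ratio of INHBA to FST, each in CPM per kb of exon length, joins both changes in 1 number. It was 20.02, 26.7 and 43.8 in OIS with the control shRNA and 0.110, 0.0559 and 0.133 with DMSO. After bleomycin it was 0.240, 0.0851, 0.259 and 0.299, against 0.0917, 0.109, 0.148 and 0.0994 with DMSO. OIS libraries thus held more INHBA than FST transcript per length and all libraries of the other control groups less. The mean log2 ratio was 8.26 higher in OIS (exact two-sided permutation p = 0.1, the smallest possible with 3 against 3) and 0.86 higher after bleomycin (exact two-sided permutation p = 0.143, where 0.02857 is the smallest possible). This ratio was added after the values were seen. With the COPB2 shRNAs in OIS it was 20.4 to 53.0.

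**Figure D4:**
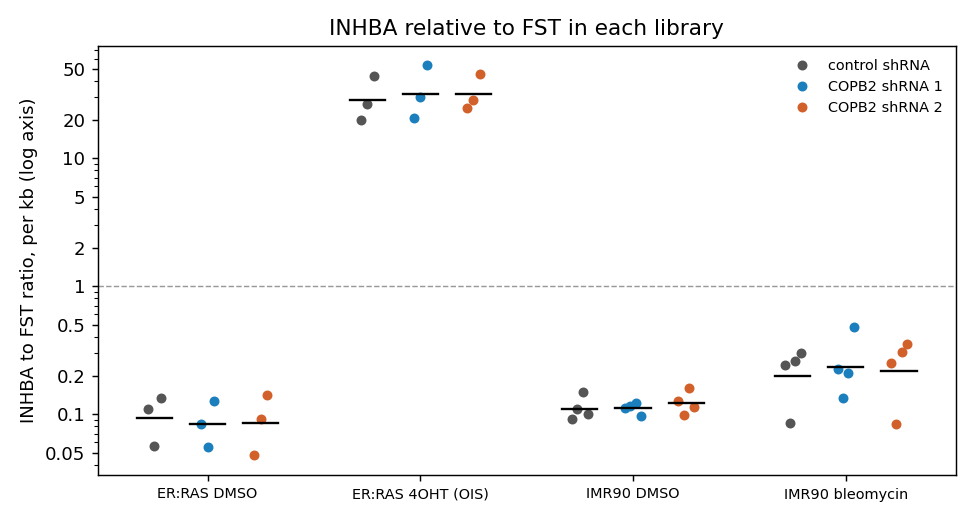
The ratio of INHBA to FST in each library, both in CPM per kb of exon, on a log axis by state and shRNA, with a bar at the mean of the log2 ratios and a dashed line at equal levels. All 9 OIS libraries lie at 20.02 or above, and the 33 others lie below 1.

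FSTL3 (ENSG00000070404, chr19:676392-683392 on the plus strand), a second activin trap, had 196, 73.0 and 50.2 CPM in OIS with the control shRNA against 44.4, 54.8 and 50.3 with DMSO. The groups overlapped, and replicate 1 of OIS stood far above the others. Its log2 fold change was 0.97 (adjusted p 0.0665, SE 0.39), which was 0.27 without that library and 1.36 without replicate 3 (adjusted p 0.575 and 0.0125), and it was also called without replicate 2 (1.25, adjusted p 0.0457). After bleomycin it had 55.6, 57.6, 46.0 and 41.7 CPM against 47.9, 37.98, 43.7 and 35.3, a log2 fold change of 0.26 (adjusted p 0.436, SE 0.23). With shRNA 2 it rose after bleomycin by 0.85 (adjusted p 0.00555, SE 0.23), which was 0.48 without bleomycin replicate 2 (adjusted p 0.0457), the library at 113 CPM.

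FSTL1 (ENSG00000163430, chr3:120111140-120169863 on the minus strand), a secreted glycoprotein, was abundant in every library, at 558 to 1844 CPM. In OIS it had 616, 666 and 1118 CPM with the control shRNA against 1376, 1054 and 1517 with DMSO, a log2 fold change of -0.81 (adjusted p 0.0690, SE 0.33) that was -1.11 and called without replicate 3 of OIS (adjusted p 0.0160). After bleomycin it had 760, 1511, 1006 and 1336 CPM against 1497, 1587, 1818 and 1471, a log2 fold change of -0.50 (adjusted p 0.0893, SE 0.22). It was called without bleomycin replicate 2 (-0.66, adjusted p 0.0400). In both models the senescent and DMSO groups overlapped. A pair of annotated genes overlaps FSTL1 on the other strand.

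With shRNA 1 FSTL1 fell in OIS by 0.97 (adjusted p 0.0306, SE 0.33), a call lost without OIS replicate 1 or 2 (adjusted p 0.0510 and 0.142) or DMSO replicate 1 or 3 (0.0717 and 0.119). With shRNA 2 it was not called in OIS (-0.73, SE 0.33, adjusted p 0.0975). After bleomycin it fell by 0.59 with shRNA 1 (adjusted p 0.0386, SE 0.22) and by 0.64 with shRNA 2 (adjusted p 0.0243, SE 0.22). The former was lost without bleomycin replicate 1 or 4 or any 1 of the 4 DMSO libraries (adjusted p 0.0529 to 0.160), and the latter without bleomycin replicate 1 or DMSO replicate 2, 3 or 4 (0.0501 to 0.118). Per kb of exon, FSTL1 (123 CPM per kb on average after bleomycin with the control shRNA) stood above FST (61.8), FSTL3 (16.6) and INHBA (14.1).

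**Figure D5:**
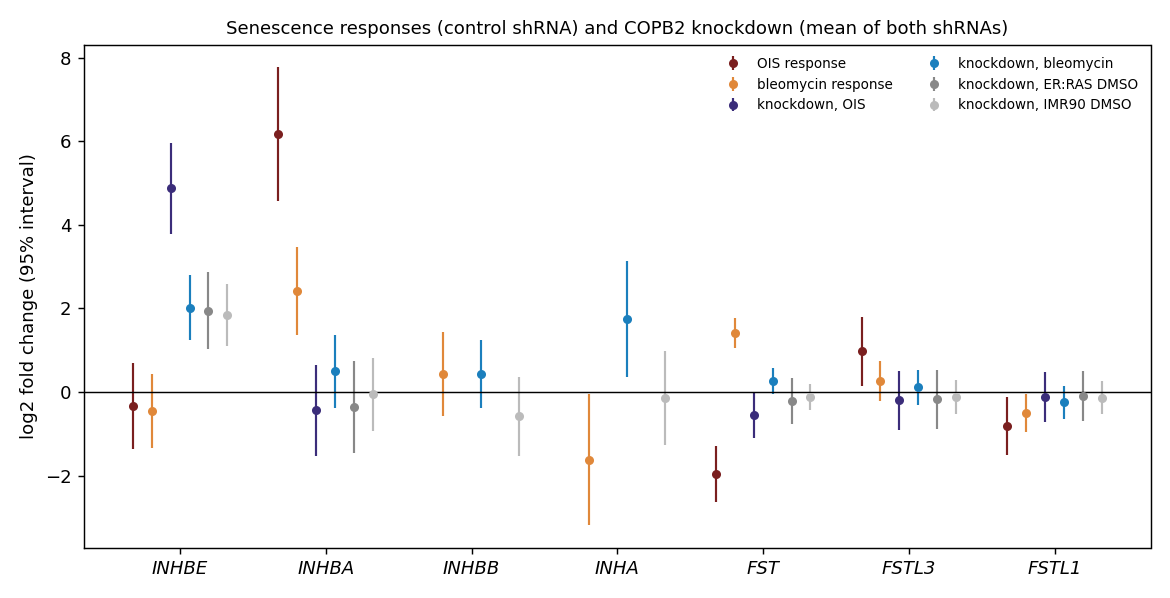
Log2 fold changes of the members tested, with 95% intervals, for senescence against DMSO with the control shRNA and for the mean of both COPB2 shRNAs against the control in each state (the OIS knockdown chose INHBE). INHBA stands at 6.17 in OIS and 2.42 after bleomycin and FST at -1.96 and 1.42, and INHBE stands above 0 in all 4 knockdown contrasts and at -0.34 and -0.45 in the senescence responses.

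Counted together, 1 of the 4 members tested besides INHBE rose in OIS and 1 fell, where 35.7% of all 14297 genes were called, 15.5% higher and 20.2% lower. After bleomycin 2 of 7 rose and 0 fell, where 31.2% of 14783 genes were called, 15.4% higher and 15.8% lower. With COPB2 shRNA 1 and 2 the shares over all genes were 36.9% and 36.9% in OIS and 35.2% and 40% after bleomycin. Members called besides INHBE numbered 3 and 2 of the 4 tested in OIS and 4 and 5 of the 6 tested after bleomycin. These shares were not tested against those of all genes. The calls after bleomycin with each COPB2 shRNA include INHBB, which passed the filter through its bleomycin libraries. Groups of all libraries did not overlap for 3 of 7 members in OIS (INHBA, INHBB and FST), beside 37.8% of 15299 genes, and for 3 of 7 after bleomycin (INHBA, INHA and FST), beside 28%. A share of members near that of all genes is no result about the family. In each of the 6 knockdown comparisons of bleomycin-treated and DMSO-treated cells, INHBE was the only member with no overlap.

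The wider pathway was read in a list of 48 genes for receptors, SMADs, convertases, antagonists and targets, of which 32 were tested in OIS and 36 after bleomycin. In OIS 10 of the 32 rose and 8 fell, beside 15.5% of all genes higher and 20.2% lower, with a median of 0.09 beside -0.08 over all genes. Targets of SMAD signalling made 5 of the rises, and 1 target, the matrix protein gene TGFBI, fell (-0.81, adjusted p 0.00549). The signal transducer SMAD3 fell by 1.66 (adjusted p 3.38e-06), the type I receptor ACVR1 by 0.91 (adjusted p 0.00191) and the co-receptor TGFBR3, also called betaglycan, by 2.07 (adjusted p 0.0210), while TGFBR3L rose by 1.66 (adjusted p 0.0130). Of the convertases that cleave precursors of this family, FURIN rose by 0.87 (adjusted p 0.00473) and PCSK5 fell by 1.81 (adjusted p 0.00110). SMURF1, a ubiquitin ligase that lowers SMAD signalling, rose by 0.86 (adjusted p 0.000673), and the SMAD repressor SKI fell by 0.75 (adjusted p 0.00574). FOXL2, a SMAD partner, rose by 1.64 (adjusted p 0.0274), and the ligand TGFB2 fell by 1.41 (adjusted p 0.0345). No type II receptor of the 3 tested was called.

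After bleomycin 8 of the 36 rose and 4 fell, beside 15.4% of all genes higher and 15.8% lower, with a median of -0.11 beside -0.01 over all genes. TGFBI fell by 1.02 (adjusted p 0.00357). The type I receptor ACVR1C rose by 2.53 (adjusted p 0.00473) and the type II receptor BMPR2 fell by 0.82 (adjusted p 0.0479). Among antagonists FSTL4 rose by 2.27 (adjusted p 0.00578) and NBL1, a BMP antagonist, fell by 2.65 (adjusted p 9.39e-05). SMURF2 rose by 1.40 (adjusted p 0.00107), PCSK5 by 1.12 (adjusted p 0.0144) and the ligand GDF11 by 0.38 (adjusted p 0.0151), and the shared transducer SMAD4 fell by 0.71 (adjusted p 0.00125). PCSK5 thus fell in OIS and rose after bleomycin, and its OIS response minus its bleomycin response was -2.88 (SE 0.50, edgeR adjusted p 5.34e-05 in the fit of all 42 libraries). None of the 36 was called after COPB2 knockdown in bleomycin-treated or DMSO-treated IMR90 cells, nor of the 32 in DMSO-treated ER:RAS cells.

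In the stress list, 6 of 25 genes rose and 2 fell in OIS (15.5% and 20.2% of all genes), and 7 rose and 6 fell after bleomycin (15.4% and 15.8%). GDF15, a distant member of the TGF-β family, rose by 3.90 (adjusted p 8.15e-07) in OIS and by 3.10 (adjusted p 0.000156) after bleomycin. NUPR1 fell by 4.78 in OIS (adjusted p 4.07e-05), and PHGDH, the first enzyme of serine synthesis, fell by 2.22 after bleomycin (adjusted p 6.11e-06). One of the 7 ER genes rose in each model, SDF2L1 by 1.02 in OIS (adjusted p 0.0317) and DNAJB9 by 0.99 after bleomycin (adjusted p 0.0452).

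By the same measure of likeness over the 42 libraries, INHBA ran most like RIPK2 (r 0.984), IL1A (0.979) and CDKN2B (0.976), the last encoding the cell cycle inhibitor p15. FST ran most like CLCA2 (0.959), BDNF (0.958) and ADAMTS19 (0.958). For FSTL3 the nearest were HMOX2 (0.968), QDPR (0.965) and PPP1R7 (0.961), and for FSTL1 they were SKP2 (0.927), PRSS35 (0.907) and TMCO3 (0.891). INHBB (PAPPA 0.766, CREG1 0.760 and PKP2 0.760) and INHA (LOC643072 0.631, PITPNA-AS1 0.583 and MAGEL2 0.580) had weaker likeness, at a few counts a library.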

How the data were processed

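Raw read counts per gene symbol in 42 libraries were deposited by the authors with no normalization. The sources on the authors' alignment differ: the submitters' processing notes list DRAGEN, STAR 2.7.8a, DESeq2 1.32.0 and build hg38, whereas the study's methods name Tophat and hg19, and its reporting summary HTSeq. The table holds no coordinates, so positions come from GENCODE on GRCh37 and promoters from RefSeq on GRCh38.p14, matched by symbol. Libraries were poly(A), directional and single-end.

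Groups follow the labels. Contrasts were tested two-sided with edgeR 4.0.16 in R 4.3.3 (glmQLFit with robust estimation, glmQLFTest, TMM scaling, low counts dropped by filterByExpr), in 1 fit for each cell line (14297 and 14783 genes) and 1 fit of all 42 libraries (15299 genes) for comparisons between lines. P-values were adjusted by Benjamini-Hochberg across the genes of a fit, and calls were made under 0.05. CPM use the TMM factors of the 42-library fit, and likeness used log2 CPM with a prior count of 2. The fits recovered changed genes in simulated counts. These were drawn independently at a fixed dispersion, and only genes above 1 CPM in the senescent controls were changed. The simulation therefore does not speak for members at lower levels or for correlated replicates.

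The members and lists were chosen with earlier results of these data known. Named are the members, INHBC, COPB2, DDIT3 and ATF4, the largest called rise and fall of each role in both senescence models, list genes called after knockdown in bleomycin-treated or DMSO-treated cells, genes within 150 kb of INHBE, and the 10 genes most like INHBE or the 3 most like another member. One gene that this rule names is not reported here. Alternatives were DESeq2 1.42.0 (Wald test, size factors), no filter on low counts, all 42 libraries in a single fit, only the libraries compared, a log2 fold change of at least 1, a replicate block and leaving out each library. Added after seeing the data were the permutation test of INHBE, the ratio of INHBA to FST and the block within treatment. All permutation tests exchanged libraries without regard to replicate number.

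Replicate numbers come from the library titles. In bleomycin-treated cells deviations from group means correlated over 0.1 in 12 of 12 same-numbered pairs (lowest 0.375, median 0.661), so the numbers were taken as pairs there. Of 54 pairs of replicates 0 were identical. Library totals, 13148194 to 23597310 counts, limit the precision at low counts, and the fitted intervals also include the spread between libraries.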

Additional observations from a re-analysis of the deposited data

Results flagged for a closer look

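Of 42 sets of 4 libraries checked (7 members in each of 6 IMR90 groups), 6 held a library far from the other 3, and chance flags about 1 in 20 sets. FST had 211.8 CPM in replicate 4 of bleomycin with the control shRNA, where the others had 152 to 160. INHBA had 353.8 CPM in replicate 4 of bleomycin with shRNA 1 (others 66.5 to 109), and INHBE had 4.89 CPM in the same library (others 1.86 to 2.31). In replicate 3 of IMR90 cells with DMSO and shRNA 1, FST had 64.3 CPM (others 48.9 to 51.0) and FSTL1 had 1844 CPM (others 1469 to 1522). INHBB had 0.897 CPM, or 15 counts, in replicate 1 of IMR90 cells with DMSO and the control shRNA (others 0.158 to 0.245).

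The responses of 2 members differed between the senescence models by the test of the difference in the 42-library edgeR fit. INHBA rose more in OIS than after bleomycin, by 3.82 on the log2 scale, and the FST response was 3.30 lower in OIS, a difference of -3.30. Model and cell line cannot be told apart in this comparison.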

How the results depend on the processing

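Of 819 recomputed values, 733 were scored as unchanged, 40 lost a call, 8 gained one, 36 moved and 2 reversed. For a tested fold change, unchanged meant the same direction and side of the threshold. Counts of genes could shift within a set ratio and still be scored as unchanged. Levels and untested fold changes could shift by less than an SD. The reversed values were the INHBE difference between bleomycin and DMSO, at -0.14 and -0.06 without control replicate 3 and without shRNA 1 replicate 4 of bleomycin (-0.14 to 0.61 over all fits without 1 library). INHBA and FST kept their calls in both models under every alternative run. Members called in OIS numbered 2, and 4 with all 42 libraries in 1 fit or with the replicate block (FSTL1 and FSTL3 added), 2 to 4 without 1 library, and with shRNA 2 they numbered 4 with all 42 libraries and 4 with the block. After bleomycin with shRNA 1 they numbered 2 to 4 without 1 library, and with shRNA 2 they numbered 3 with a log2 fold change of at least 1, 3 with only the libraries compared and 3 to 5 without 1 library. After knockdown in bleomycin-treated cells, only the libraries compared gave 0 with shRNA 2 and 0 with both (INHBE adjusted p 0.864 and 0.915), and leaving out 1 library gave 0 to 1 in each. The block within treatment gave 1 with shRNA 1, 2 with shRNA 2 and 2 for shRNA 2 against shRNA 1. In DMSO-treated IMR90 cells INHBE was the 1 member called with shRNA 2 by the DESeq2 Wald test (adjusted p 0.000272) and the block within treatment (0.00690), and over both shRNAs by the Wald test (0.000232), only the libraries compared (0.0342) and the block (0.0104). In DMSO-treated ER:RAS cells the Wald test called 1 member with shRNA 2 (INHBE, 0.00280) and 1 over both (0.00575). The cause of these shifts was not tested, and shares of all genes called were counted only for the main fits and the block within treatment. Of the 10 genes most like INHBE, 2 remained with group means removed.

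Outside bleomycin-treated cells the replicate numbers were not taken as pairs, except in the blocks run as alternatives, which covered those cells too. Same-numbered pairs correlated over 0.1 in 11 of 12 cases in IMR90 cells with DMSO. In OIS and in ER:RAS cells with DMSO 7 of 9 did so in each. The lowest values were 0.0983, -0.21 and -0.57 in this order, and the medians were 0.565, 0.642 and 0.621. INHBB and INHA, at 0 to 20 counts, are limited by depth.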
